A study of Mus musculus with 9 samples.

Results

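The genes described here are 33 genes of cholesterol and fatty acid synthesis, measured by RNA-seq in retinal explants of the mouse. They were taken by symbol from a list that covered the sterol pathway, its control by the SREBP transcription factors, and the synthesis and desaturation of fatty acids, and they are 33 of the 55487 genes in the table of counts. All 33 had enough counts to be among the 21049 genes tested. By role, 7 are enzymes of the mevalonate pathway, 11 are enzymes between squalene and cholesterol, 5 control SREBP, 2 act in sterol transport and receptor turnover, and 8 belong to fatty acid synthesis, desaturation and glycerolipid synthesis.

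The explants were retinas from C57BL/6J mice (wild-type, postnatal day 28), kept for 48 h in Neurobasal-A medium that held 5 mM glucose. The control group (5 libraries) received no inhibitor and the 2-DG group (4 libraries) received 2-deoxy-D-glucose at 20 mM, and both then spent 1 h in Krebs' Ringer medium. 2-DG is a glucose analogue that enters cells, is phosphorylated and then blocks glycolysis. The comparison asks which transcripts differ with 2-DG at the same glucose concentration. The paper names wider metabolic effects of 2-DG as possible. It adds that, with no cell death analysis, effects of cellular stress could not be separated. The labels describe each library as a biological replicate but do not say which explants came from separate animals, so the p-values measure the spread between these libraries. The protocol text is the same for both groups and mentions 2-DG in each, and the groups were therefore taken from the titles and the treatment label.

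Cells build cholesterol from acetyl-CoA through mevalonate, farnesyl pyrophosphate and squalene, and they build fatty acids from the same acetyl-CoA through acetyl-CoA carboxylase and fatty acid synthase. When sterols are scarce in the endoplasmic reticulum, the protein Scap carries the SREBP precursors to the Golgi, where they are cut and released as transcription factors, and the Insig proteins hold this transport back when sterols are plentiful. In the retina these lipids supply the membranes of photoreceptors, whose outer segments are renewed throughout life, and Müller glia.

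Promoter sequences are shown first because SREBP acts through short elements near the start of its target genes. RefSeq (GRCm38.p6) gave 26 of the 33 genes a promoter entry of 250 bases before to 50 bases after a start, 34 starts in all. Entries were not matched for Fdps, Fdft1, Sqle, Stard4, Scd1, Scd2 and Fads1. Below are the 250 bases before the start of Hmgcs1, which makes HMG-CoA and was the only one of the 26 with the sterol response element letters, of Lss, the gene of the list with the smallest p-value, and of Scap and Insig1, the SREBP escort and its retention factor. All lie on the plus strand and are printed 5′ to 3′. Capitals mark matches to the sterol response element TCACNCCAC, the CCAAT box CCAAT or the E-box CACGTG on either strand, where ATTGG is a CCAAT box on the other strand. An E-box can share letters with the end of a sterol response element, and no such overlap occurs in these windows.
Hmgcs1, chr13:119690101-119690350: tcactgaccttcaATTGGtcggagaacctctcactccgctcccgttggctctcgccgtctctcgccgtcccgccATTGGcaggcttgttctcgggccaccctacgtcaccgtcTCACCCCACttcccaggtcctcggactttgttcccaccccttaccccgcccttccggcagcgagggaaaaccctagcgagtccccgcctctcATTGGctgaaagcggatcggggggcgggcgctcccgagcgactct
Lss, chr10:76531355-76531604: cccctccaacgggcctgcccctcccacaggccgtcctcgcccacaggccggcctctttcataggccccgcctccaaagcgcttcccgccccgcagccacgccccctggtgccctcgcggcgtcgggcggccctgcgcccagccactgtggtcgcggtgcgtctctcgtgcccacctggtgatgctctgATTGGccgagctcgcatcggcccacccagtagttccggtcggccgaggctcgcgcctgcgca
Scap, chr9:110333106-110333355: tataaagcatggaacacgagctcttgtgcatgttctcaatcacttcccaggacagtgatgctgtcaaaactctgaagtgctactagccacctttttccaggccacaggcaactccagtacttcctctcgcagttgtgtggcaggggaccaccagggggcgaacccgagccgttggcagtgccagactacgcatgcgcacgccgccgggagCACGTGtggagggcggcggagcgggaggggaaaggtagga
Insig1, chr5:28071162-28071411: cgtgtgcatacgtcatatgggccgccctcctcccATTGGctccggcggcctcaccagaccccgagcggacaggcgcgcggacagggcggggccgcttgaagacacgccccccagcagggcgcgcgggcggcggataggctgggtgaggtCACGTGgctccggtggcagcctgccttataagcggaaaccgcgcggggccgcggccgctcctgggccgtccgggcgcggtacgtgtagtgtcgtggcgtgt

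In Hmgcs1 the sterol response element began 137 bases before the start, between CCAAT boxes that began 237, 176 and 45 bases before it. Lss held 1 CCAAT box, 62 bases before its start. Scap held an E-box 40 bases before the start shown, and Insig1 held an E-box 101 bases and a CCAAT box 216 bases before its start. Over whole windows of 300 bases, the sterol response element letters occurred in 1 of 26 genes of the list (3.85%) against 1.44% of the 27025 genes with an entry. The CCAAT box occurred in 20 of 26 (76.9%) against 41.1%, and the E-box in 5 of 26 (19.2%) against 8.09%. These matches describe letters only, and SREBP also binds variants that this search does not hold.

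Across the whole table, edgeR's quasi-likelihood test with Benjamini-Hochberg adjustment called 0 of 21049 genes at an adjusted p of 0.05 (0% of genes), with a smallest adjusted p of 0.181. At an unadjusted p under 0.05 it marked 1526 genes, 509 higher and 1017 lower with 2-DG. Other tools called more at an adjusted p of 0.05: 284 genes with DESeq2, 1222 with limma-voom with quality weights and 725 with edgeR and 2 surrogate variables. Totals ran from 11317734 to 51802249 counts per library, so that 3 counts correspond to between 0.0556 and 0.255 CPM (counts scaled to the library total, adjusted by TMM), and the biological coefficient of variation was 51.5%. The 8 rod markers were present in all libraries, and their summed level was 39742 CPM in control replicate 2 against 4615 to 13783 CPM in the other control libraries. 2-DG replicate 4 had the lowest TMM factor, 0.82. Both libraries stood apart, and the counts of all 33 genes are given with and without them.

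None of the 33 genes passed the adjusted threshold, and the smallest adjusted p among them was 0.602 in edgeR's quasi-likelihood test. DESeq2 likewise called 0 of the 33, where it called 284 of all 21049 genes. From limma-voom 3 were called, Fdft1, Lss and Scap, against 1222 of all 21049 genes. From edgeR with 2 surrogate variables 2 were called, Fdps and Lss, against 725 of all 21049 genes. These calls were all higher with 2-DG. By the sign of the log2 fold change 23 were higher and 10 lower with 2-DG, where 49.2% of all genes tested were higher, and their median log2 fold change was 0.16 against -0.01 over all genes. With upper-quartile scaling 21 were higher (42.0% of all genes), with scaling by library size 22 (44.1%) and with DESeq2 size factors 23 (49.6%). At an unadjusted p under 0.05, 5 genes (15.2%) were higher, Lss, Stard4, Fdps, Scap and Fdft1, against 2.42% of all genes, and 0 were lower, against 4.83%. The count fell to 2, Lss and Stard4, with upper-quartile scaling (1.53% of all genes) or a filter at 1 CPM (2.26%), and to 3, Fdps in addition, with scaling by library size (1.39%) or without a filter (1.89%). The 5 encode 3 sterol pathway enzymes, the SREBP escort and a sterol carrier. In 1 gene, Stard4, every 2-DG library lay above every control library, against 1.52% of all genes, and in 0 genes did every 2-DG library lie below, against 1.41%.

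**Figure D1:**
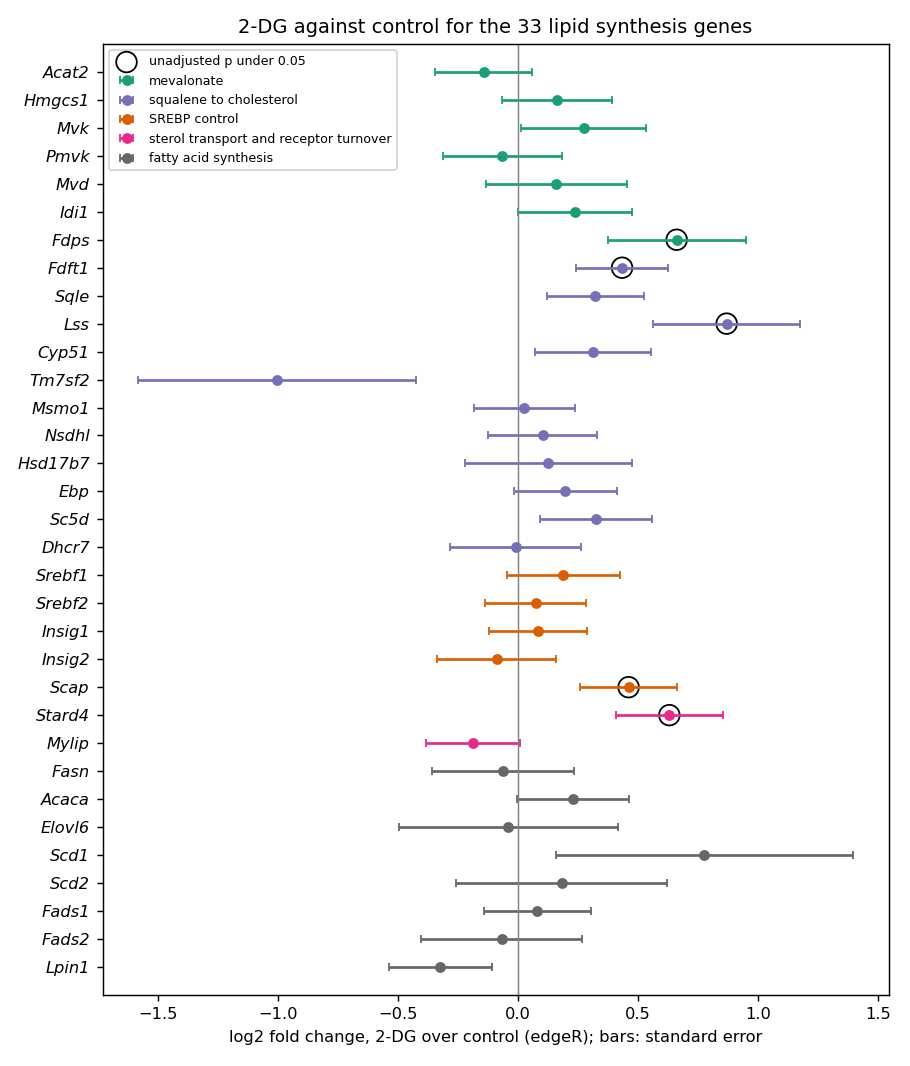
Log2 fold change of 2-DG over control (x axis, edgeR, bars are standard errors) for the 33 genes, colored by role; circles mark an unadjusted p under 0.05. The circled genes, Lss, Stard4, Fdps, Scap and Fdft1, all lie to the right of 0, and the point farthest to the left is Tm7sf2 at -1.004.

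The count of 5 depended on single libraries. It was 5, the same genes, without control replicate 2, where 2.92% of all genes were higher at this p. Without control replicate 1 it was 4 (2.20% of all genes), Fdft1, Lss and Stard4 with Scd1, which is not among the 5. Without 2-DG replicate 4 it was 4 (3.38%), all of the 5 but Fdps. It was 3 (Fdps, Lss and Stard4) without 2-DG replicate 2 (1.82%), and 2 (Lss and Scap) without 2-DG replicate 3 (1.94%). It was 2 (Lss and Stard4) without control replicate 3 (2.39%), 4 (1.35%) or 5 (2.40%), and 1 (Stard4) without 2-DG replicate 1 (1.62%). Without control replicate 2 and 2-DG replicate 4 together, a choice made after seeing the data, it was 7 (Mvk and Acaca in addition to the 5, 21.2%) against 4.76% of all genes, and the smallest adjusted p was 0.0805 in edgeR. Of the 33 genes, 24 were then higher, against 49.3% of all genes, with a median log2 fold change of 0.17. Without 2-DG replicate 3 alone 21 were higher, against 47.7% of all genes, and the median was 0.09. The median was 0.06 with upper-quartile and 0.09 with library-size scaling, where the median of all genes was -0.09 and -0.07. The groups did not overlap for 7 of the 33 with these 7 libraries, against 6.99% of all genes, and for 1 with all 9 libraries, against 1.52% of all genes. In these libraries of whole tissue, a lower share of a cell type and less RNA per cell cannot be told apart.

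The mevalonate pathway turns acetyl-CoA into farnesyl pyrophosphate. Of its 7 genes 5 were higher and 2 lower, with a median log2 fold change of 0.16 (0.09 with upper-quartile scaling, 0.24 without control replicate 1 or 2-DG replicate 2), and 1 had an unadjusted p under 0.05. That gene was Fdps (ENSMUSG00000059743, chr3:89093588-89101959 on GRCm38), which makes farnesyl pyrophosphate, the last intermediate shared by sterols and isoprenoids. It measured 28.4, 48.8, 20.7, 23.1 and 33.9 CPM in control replicates 1 to 5 and 44.7, 35.9, 65.1 and 49.99 CPM in 2-DG replicates 1 to 4. Control replicate 2 was the high control and overlapped the 2-DG range, while all 4 2-DG libraries lay above the control mean. The means were 30.98 ± 11.2 CPM in control (SD, n = 5) and 48.9 ± 12.2 CPM with 2-DG (SD, n = 4), a log2 fold change of 0.66 (SE 0.29) with an unadjusted p of 0.0429 and an adjusted p of 0.687 in edgeR. Its p stayed under 0.05 in 2 of the 9 fits that each left out 1 library, those without control replicate 2 and without 2-DG replicate 2.

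Hmgcs1, the HMG-CoA synthase with the sterol response element above, measured 144, 84.6, 106, 141 and 112 CPM in control replicates 1 to 5 and 119, 123, 173 and 110.3 CPM in 2-DG replicates 1 to 4. 2-DG replicate 3 was the highest library of all and the rest of the 2-DG group lay inside the control range. Its log2 fold change was 0.16 (SE 0.23). Idi1, an isomerase of isoprenoid units, was at 0.24, Mvk, mevalonate kinase, at 0.27, and Mvd, which decarboxylates the phosphorylated mevalonate, at 0.16. Pmvk, the second mevalonate kinase, was at -0.07 and Acat2, which joins acetyl-CoA units, at -0.14. For these 6 genes the unadjusted p was above 0.05.

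The 11 enzymes that turn farnesyl pyrophosphate into squalene and squalene into cholesterol had a median log2 fold change of 0.20, which was 0.31 without 2-DG replicate 4 and 0.12 with upper-quartile scaling. Of these, 9 were higher and 2 lower, and 2 had an unadjusted p under 0.05. Lss (ENSMUSG00000033105, chr10:76531588-76557138), lanosterol synthase, folds the squalene epoxide into the first sterol ring system. It measured 66.8, 53.1, 68.6, 40.6 and 38.9 CPM in control replicates 1 to 5 and 121, 112, 112 and 46.6 CPM in 2-DG replicates 1 to 4. In 3 of the 4 2-DG libraries the level was above every control, and 2-DG replicate 4 lay inside the control range. The means were 53.6 ± 13.99 CPM in control (SD, n = 5) and 97.8 ± 34.4 CPM with 2-DG (SD, n = 4), a log2 fold change of 0.87 (SE 0.31) with an unadjusted p of 0.0166 and an adjusted p of 0.602 in edgeR. The p stayed under 0.05 in 8 of the 9 fits without 1 library and was 0.0511 without 2-DG replicate 1, and the log2 fold change ran from 0.76 to 1.1, the highest value without 2-DG replicate 4.

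Fdft1 (ENSMUSG00000021273, chr14:63145150-63179578), squalene synthase, takes the first step committed to sterols. It measured 56.4, 55.6, 41.3, 46.5 and 45.01 CPM in control replicates 1 to 5 and 72.7, 63.1, 76.4 and 51.9 CPM in 2-DG replicates 1 to 4. All 2-DG libraries lay above the control mean, 3 of them above every control, and 2-DG replicate 4 was again the lowest. The means were 48.9 ± 6.69 CPM in control (SD, n = 5) and 66.1 ± 10.97 CPM with 2-DG (SD, n = 4), a log2 fold change of 0.43 (SE 0.19) with an unadjusted p of 0.0465 and an adjusted p of 0.689 in edgeR. Its p stayed under 0.05 in 3 of the 9 fits, those without control replicate 1 or 2 and without 2-DG replicate 4.

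Sqle, squalene epoxidase, which makes the substrate of Lss, measured 46.1, 32.2, 34.97, 41.5 and 32.8 CPM in control replicates 1 to 5 and 49.99, 43.5, 56.5 and 37.5 CPM in 2-DG replicates 1 to 4. 2-DG replicates 1 and 3 lay above every control and the other two within the control range, for a log2 fold change of 0.32 (SE 0.20, unadjusted p 0.142). After lanosterol, Cyp51, the lanosterol demethylase, was at 0.31, Sc5d, a sterol desaturase, at 0.32, and Ebp, a sterol isomerase, at 0.20. Hsd17b7 and Nsdhl, which take part in removing methyl groups from the ring, were at 0.13 and 0.10. Msmo1, the methyl sterol oxidase, was at 0.03, with the sign turning under upper-quartile or library-size scaling, and Dhcr7, which makes cholesterol itself, was at -0.01. None of these had an unadjusted p under 0.05.

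Tm7sf2, a sterol reductase, had the only log2 fold change of at least 1 in size in the list, -1.004 (SE 0.58, unadjusted p 0.112). It measured 11.96, 60.8, 7.71, 11.01 and 14.7 CPM in control replicates 1 to 5 and 8.40, 10.5, 13.3 and 9.98 CPM in 2-DG replicates 1 to 4. Control replicate 2, the library with the high rod markers, stood far above the other 8, which overlapped. Without that library the log2 fold change was -0.11.

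Taken as a mean of log2 CPM over the 18 sterol enzymes, the control libraries ran from 4.85 to 5.05. 2-DG replicates 1 to 3 were at 5.17, 5.17 and 5.31, above the control range, and 2-DG replicate 4 was at 4.94, inside it. No p is given for such a mean, since the genes were chosen with earlier results known.

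**Figure D2:**
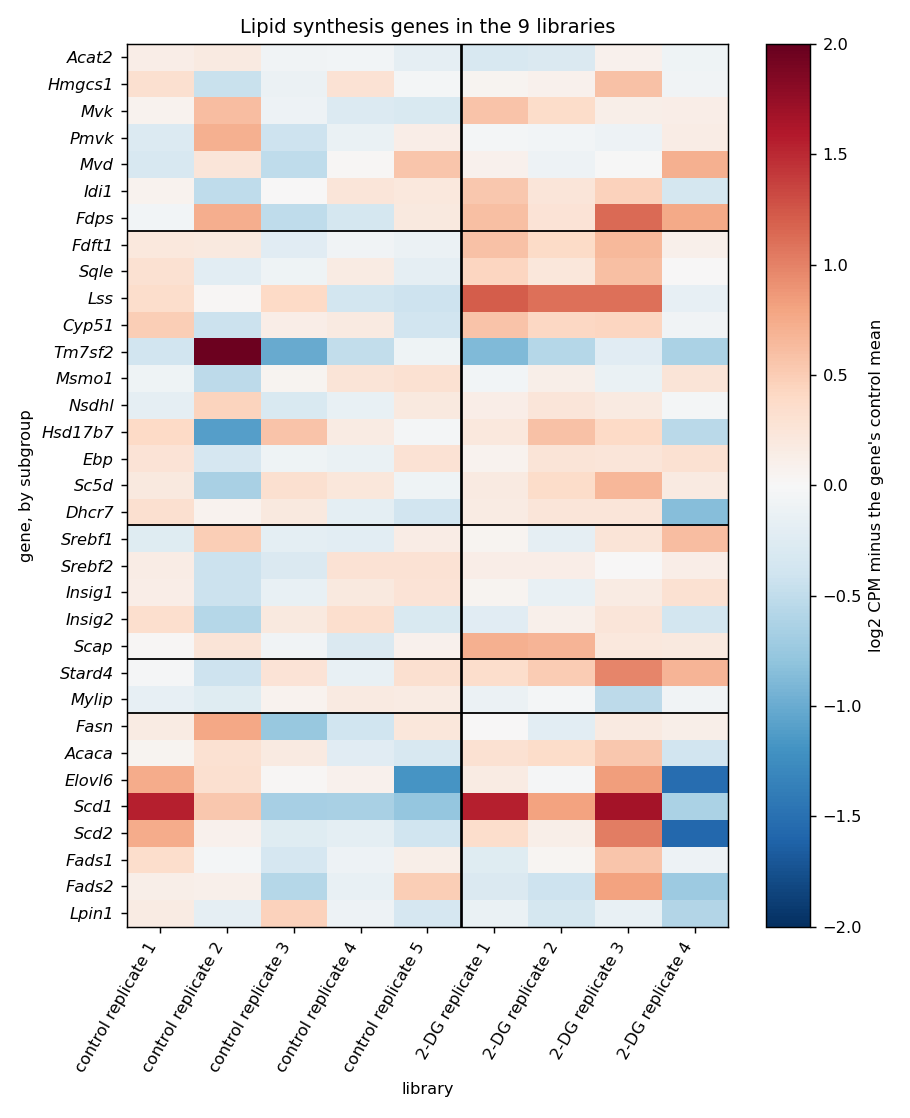
Log2 CPM minus the mean of the control libraries for each of the 33 genes (rows, in order of role, lines between roles) in the 9 libraries (columns), on a color scale from -2 to 2. Lss is red in 2-DG replicates 1 to 3, Tm7sf2 stands out in control replicate 2, and Scd2, Elovl6 and Dhcr7 are blue in 2-DG replicate 4.

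Scap (ENSMUSG00000032485, chr9:110333288-110384950), the escort of SREBP, was the 1 gene of the 5 that control SREBP with an unadjusted p under 0.05. It measured 84.99, 101, 80.01, 68.9 and 89.2 CPM in control replicates 1 to 5 and 138, 135, 96.9 and 96.5 CPM in 2-DG replicates 1 to 4. 2-DG replicates 1 and 2 lay well above every control, and replicates 3 and 4 lay below control replicate 2 only. The means were 84.7 ± 11.7 CPM in control (SD, n = 5) and 116 ± 22.9 CPM with 2-DG (SD, n = 4), a log2 fold change of 0.46 (SE 0.20) with an unadjusted p of 0.0441 and an adjusted p of 0.689 in edgeR. Its p stayed under 0.05 in 3 of the 9 fits, those without control replicate 2 and without 2-DG replicate 3 or 4. With upper-quartile or library-size scaling it was not under 0.05. From transcript counts summed per gene, described below, Scap was at 0.22 with an unadjusted p of 0.329 in edgeR.

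The transcription factors and the Insig genes had no unadjusted p under 0.05. Srebf2, the SREBP that mainly drives sterol genes, measured 166, 111, 124, 183 and 184 CPM in control replicates 1 to 5 and 166, 165, 152 and 164 CPM in 2-DG replicates 1 to 4. All 2-DG libraries fell inside the control range, and the log2 fold change was 0.07 (SE 0.21), with the sign turning under upper-quartile scaling. Srebf1, which mainly drives fatty acid genes, measured 40.03, 66.6, 41.4, 41.2 and 52.8 CPM in control replicates 1 to 5 and 49.1, 41.9, 56.8 and 72.4 CPM in 2-DG replicates 1 to 4. Both groups spanned nearly the same range, for a log2 fold change of 0.19 (SE 0.24).

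Insig1, itself an SREBP target that holds Scap in the endoplasmic reticulum, measured 96.1, 65.2, 79.2, 100.4 and 106 CPM in control replicates 1 to 5 and 91.3, 78.99, 98.9 and 109 CPM in 2-DG replicates 1 to 4. The groups overlapped throughout, and its log2 fold change was 0.08 (SE 0.20). Insig2, its paralogue, was at -0.09. The median of the 5 genes that control SREBP was 0.08, and it was -0.02 without control replicate 2.

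Stard4 (ENSMUSG00000024378, chr18:33199355-33213862) carries cholesterol between membranes. It measured 25.7, 19.5, 31.5, 23.4 and 32.7 CPM in control replicates 1 to 5 and 33.4, 37.2, 51.7 and 41.95 CPM in 2-DG replicates 1 to 4. Each 2-DG library was above each control library, and the closest pair, 2-DG replicate 1 and control replicate 5, lay less than 1 CPM apart. The means were 26.6 ± 5.50 CPM in control (SD, n = 5) and 41.1 ± 7.88 CPM with 2-DG (SD, n = 4), a log2 fold change of 0.63 (SE 0.22) with an unadjusted p of 0.0176 and an adjusted p of 0.604 in edgeR. Its p stayed under 0.05 in 8 of the 9 fits and was 0.0600 without 2-DG replicate 3. Under upper-quartile scaling the groups overlapped.

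Mylip, a ubiquitin ligase that sends lipoprotein receptors to degradation and is under control of the sterol sensor LXR, measured 27.7, 26.1, 32.4, 34.99 and 34.5 CPM in control replicates 1 to 5 and 28.4, 30.1, 21.5 and 29.4 CPM in 2-DG replicates 1 to 4. None of the 4 2-DG libraries was above the control mean, but 3 of them lay within the control range. Its log2 fold change was -0.19 (SE 0.20, unadjusted p 0.361).

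**Figure D3:**
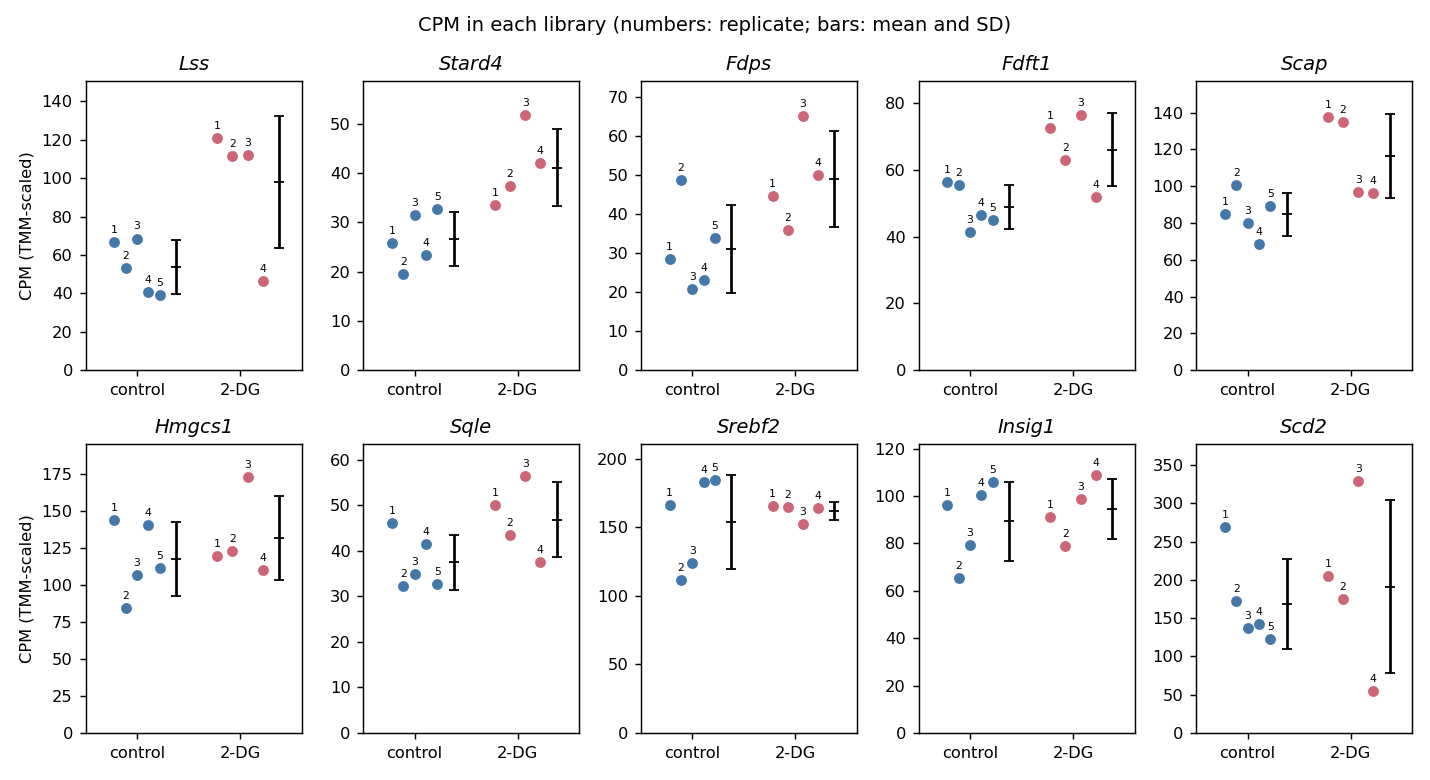
CPM (y axis, from 0) of 10 of the genes in each control library (blue) and 2-DG library (red), numbered by replicate, with the mean and SD in black. Stard4 is the gene whose groups do not overlap, 2-DG replicate 4 lies among the controls for Lss, and Srebf2 and Insig1 lie within the control range or near it.

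The 8 genes of fatty acid synthesis had a median log2 fold change of 0.02, with 4 higher and 4 lower and none at an unadjusted p under 0.05. The sign of this median changed with the processing. Over the fits without 1 library it ran from -0.16 without 2-DG replicate 3 to 0.20 without 2-DG replicate 4, and it was -0.05 under upper-quartile scaling and -0.01 with scaling by library size or with a filter at 1 CPM. Fasn, fatty acid synthase, measured 145, 221, 76.7, 98.5 and 151 CPM in control replicates 1 to 5 and 129.6, 112, 147 and 141 CPM in 2-DG replicates 1 to 4. The 2-DG values were within the control range, for a log2 fold change of -0.06 (SE 0.30). Acaca, acetyl-CoA carboxylase, which makes the malonyl-CoA that Fasn uses, was at 0.23 (SE 0.23). Elovl6, which elongates the product of Fasn, was at -0.04, and the desaturases of polyunsaturated fatty acids Fads1 and Fads2 were at 0.08 and -0.07.

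Scd2, the main stearoyl-CoA desaturase of neural tissue, measured 269, 172, 137, 142 and 122 CPM in control replicates 1 to 5 and 205, 175, 329.6 and 54.4 CPM in 2-DG replicates 1 to 4. The 2-DG group held both the highest and the lowest of the 9 libraries, replicates 3 and 4, and the log2 fold change was 0.18 (SE 0.44). Scd1, the paralogue known from liver and fat, measured 9.46, 4.65, 1.99, 2.003 and 1.84 CPM in control replicates 1 to 5 and 9.51, 5.60, 10.2 and 2.03 CPM in 2-DG replicates 1 to 4. Libraries near 2 CPM and near 10 CPM occurred in both groups, and its log2 fold change of 0.77 (SE 0.62, unadjusted p 0.238) was 1.39 without control replicate 1, with an unadjusted p of 0.0340 in edgeR.

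Lpin1, a phosphatidate phosphatase of glycerolipid synthesis, measured 66.1, 52.05, 80.7, 54.97 and 46.5 CPM in control replicates 1 to 5 and 53.6, 45.9, 52.99 and 39.3 CPM in 2-DG replicates 1 to 4. None of the 2-DG libraries was above the control mean and the groups overlapped, for a log2 fold change of -0.32 (SE 0.21, unadjusted p 0.158). As a mean of log2 CPM over the 8 genes, the control libraries ran from 5.41 to 6.17 and the 2-DG libraries from 5.00 in replicate 4 to 6.36 in replicate 3.

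The 2-DG libraries thus differed among themselves. Replicate 3 was the highest of the 4 for 16 of the 33 genes and replicate 4 the lowest for 17. Replicate 3 also held markers of retinal pigment epithelium, a layer that was removed at dissection. The 7 markers summed to 160 CPM there, with Rpe65 at 6.67 CPM, against 1.78 to 24.7 CPM in the other 2-DG libraries and 4.28 to 11.4 CPM in control. Rpe65 was at 0 in 4 libraries and at most 0.315 CPM in the others. 3 astrocyte markers summed to 212 CPM in replicate 3, against 26.3 to 92.0 CPM in the other 2-DG libraries and 35.8 to 109 CPM in control. The part of these cells in the values of replicate 3 was not tested. Without it, Lss and Scap kept an unadjusted p under 0.05. The log2 fold changes of Stard4, Fdps and Fdft1 were then 0.50, 0.49 and 0.36, against 0.63, 0.66 and 0.43 with all libraries, and their unadjusted p were 0.0600, 0.136 and 0.122 in edgeR.

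Of the other cell types, the 9 Müller glia markers summed to between 2107 and 7546 CPM in control and between 1211 and 3996 CPM with 2-DG, and 2 of the 9 were higher by log2 fold change. The 8 rod markers were lower with 2-DG in 8 of 8 over all libraries and higher in 8 of 8 without control replicate 2, and 7 of 8 were lower without control replicate 2 and 2-DG replicate 4. Their sums were 6992 to 14983 CPM with 2-DG against 4615 to 39742 CPM in control. Vessel markers summed to between 329 and 2018 CPM in control and between 457 and 2507 CPM with 2-DG, and microglia markers to between 6.07 and 46.8 CPM and between 8.12 and 52.8 CPM. Of the 7 microglia markers tested 6 were higher with 2-DG, and 0 of 7 without 2-DG replicate 3. Of the 4 markers of retinal pigment epithelium tested 3 were higher, and 2 without that library. Oligodendrocyte markers summed to between 30.0 and 60.7 CPM in control and between 28.2 and 51.3 CPM with 2-DG. Adipocytes are rich in Scd1 and Fasn, and their 4 markers summed to at most 2.58 CPM in any library. Lens markers summed to at most 14.6 CPM, with Lim2 at 0 in all 9 libraries, and skeletal muscle markers to at most 14.5 CPM. Their part in the lipid genes was not tested.

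The deposited gene values are not plain sums of the deposited transcript values, so a sum over the transcripts of each gene was tested as well, a choice made after seeing the data. Over 20945 genes tested this way 0 passed an adjusted p of 0.05 in edgeR. Of the 33 genes 23 were again higher, and the median log2 fold change was 0.14. At an unadjusted p under 0.05, 2 were higher, against 2.29% of all genes, namely Fdps (0.68, p 0.0295) and Stard4 (0.58, p 0.0123). Lss was at 0.72 (p 0.0578) and Fdft1 at 0.41 (p 0.0563), just above the threshold. Scap differed most of the 33, with a log2 fold change of 0.22 (p 0.329) from summed transcripts against 0.46 in the gene values. In the sums the groups of 2 genes, Ebp and Stard4, did not overlap, against 1.53% of all genes higher in this way. Ebp was at 0.34 (p 0.0825), with 16.3 ± 1.53 CPM in control (SD, n = 5) and 20.7 ± 0.465 CPM with 2-DG (SD, n = 4).

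**Figure D4:**
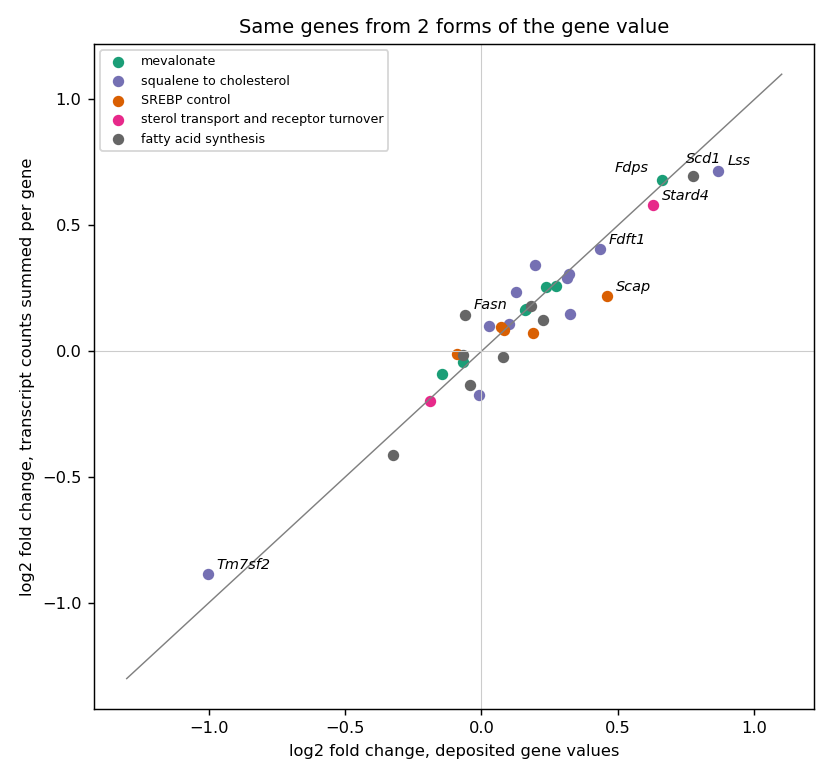
Log2 fold change of 2-DG over control for the 33 genes from the deposited gene values (x axis) and from transcript counts summed per gene (y axis), colored by role, with the line of equal values. Most genes lie near the line; Scap and Lss lie below it and Fasn above it.

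The transcript table listed 196 transcripts of the 33 genes, and 129 of them, 80 coding and 32 with a retained intron, had enough counts to be among the 62900 tested. None passed an adjusted p of 0.05 in edgeR (0% of all transcripts). At an unadjusted p under 0.05, 1 transcript (0.775%) was higher, against 1.17% of all transcripts, and 1 (0.775%) lower, against 2.28%. Both counts rested on single libraries: none was higher without control replicate 4 or without 2-DG replicate 2 or 3 (0.706% to 0.834% of all transcripts), and 4 were without 2-DG replicate 4 (2.32%), while none was lower without control replicate 2, 4 or 5 or without 2-DG replicate 1 or 2 (1.30% to 3.24%), and 3 were without 2-DG replicate 3 (2.15%). The higher one was Lss-207, a transcript with a retained intron, which measured 15.4, 12.1, 15.4, 8.39 and 7.43 CPM in control replicates 1 to 5 and 29.9, 28.6, 24.99 and 8.45 CPM in 2-DG replicates 1 to 4. It followed the gene, with 3 of 4 2-DG libraries above every control and replicate 4 low, for a log2 fold change of 0.97 (SE 0.41) and an unadjusted p of 0.0412 in edgeR.

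Other Lss transcripts were looked at after their values were seen. The form with the highest mean in control, Lss-204, also a retained-intron form, measured 30.5 ± 9.69 CPM in control (SD, n = 5) and 29.4 ± 7.63 CPM with 2-DG (SD, n = 4), a log2 fold change of -0.05 (SE 0.29). The coding form Lss-201 measured 20.05, 0.372, 21.96, 12.6 and 3.82 CPM in control replicates 1 to 5 and 40.7, 33.1, 35.9 and 10.2 CPM in 2-DG replicates 1 to 4. 2-DG replicates 1 to 3 were above every control, and control replicate 2 held almost none of this form although its gene value was in the control range. Its log2 fold change was 1.35 (SE 0.86, unadjusted p 0.146).

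The lower transcript was Lpin1-202, the coding form of Lpin1 with the highest mean in control, which measured 7.17, 14.9, 41.98, 11.7 and 12.9 CPM in control replicates 1 to 5 and 2.55, 7.34, 4.07 and 12.5 CPM in 2-DG replicates 1 to 4. Control replicate 3 was far above the rest and 2-DG replicates 2 and 4 lay within the control range, for a log2 fold change of -1.42 (SE 0.62) with an unadjusted p of 0.0469 in edgeR. Lpin1-204, with means of 13.4 CPM in control and 6.81 CPM with 2-DG against 17.7 and 6.62 CPM for Lpin1-202, was at -0.97 (SE 0.77). Lpin1-201 and Lpin1-207, chosen after their values were seen, were at 1.34 (SE 1.05) and 1.67 (SE 1.30), neither at an unadjusted p under 0.05.

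Srebf1-201, the main coding form of Srebf1, measured 18.7, 14.5, 17.4, 38.8 and 54.2 CPM in control replicates 1 to 5 and 29.6, 26.3, 21.6 and 80.2 CPM in 2-DG replicates 1 to 4, and Srebf1-203, the second, measured 1.40, 59.3, 1.08, 5.71 and 16.1 CPM in control replicates 1 to 5 and 2.79, 5.41, 1.09 and 16.8 CPM in 2-DG replicates 1 to 4. Control replicate 2 carried most of its Srebf1 counts in Srebf1-203, while the other 8 libraries carried more in Srebf1-201. The log2 fold changes were 0.46 (SE 0.52) and -1.35 (SE 1.20). None of the leading transcripts of the other genes had an unadjusted p under 0.05. Insig1-201 was at 0.04 (SE 0.29), Scd1-201 at 0.64 (SE 0.60), Scd2-201 at 0.09 (SE 0.43), Acaca-201 at 0.07 (SE 0.22), and Fasn-205 and Fasn-201 at 0.29 (SE 0.38) and -0.22 (SE 0.32). The second transcripts Insig1-202, Scd2-202 and Acaca-202 were at 0.07, 2.58 and 0.15, with SE of 0.43, 1.92 and 1.08. Scap-201, which is named outside the rule for transcripts given below, held nearly all Scap counts and was at 0.14 (SE 0.26).

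**Figure D5:**
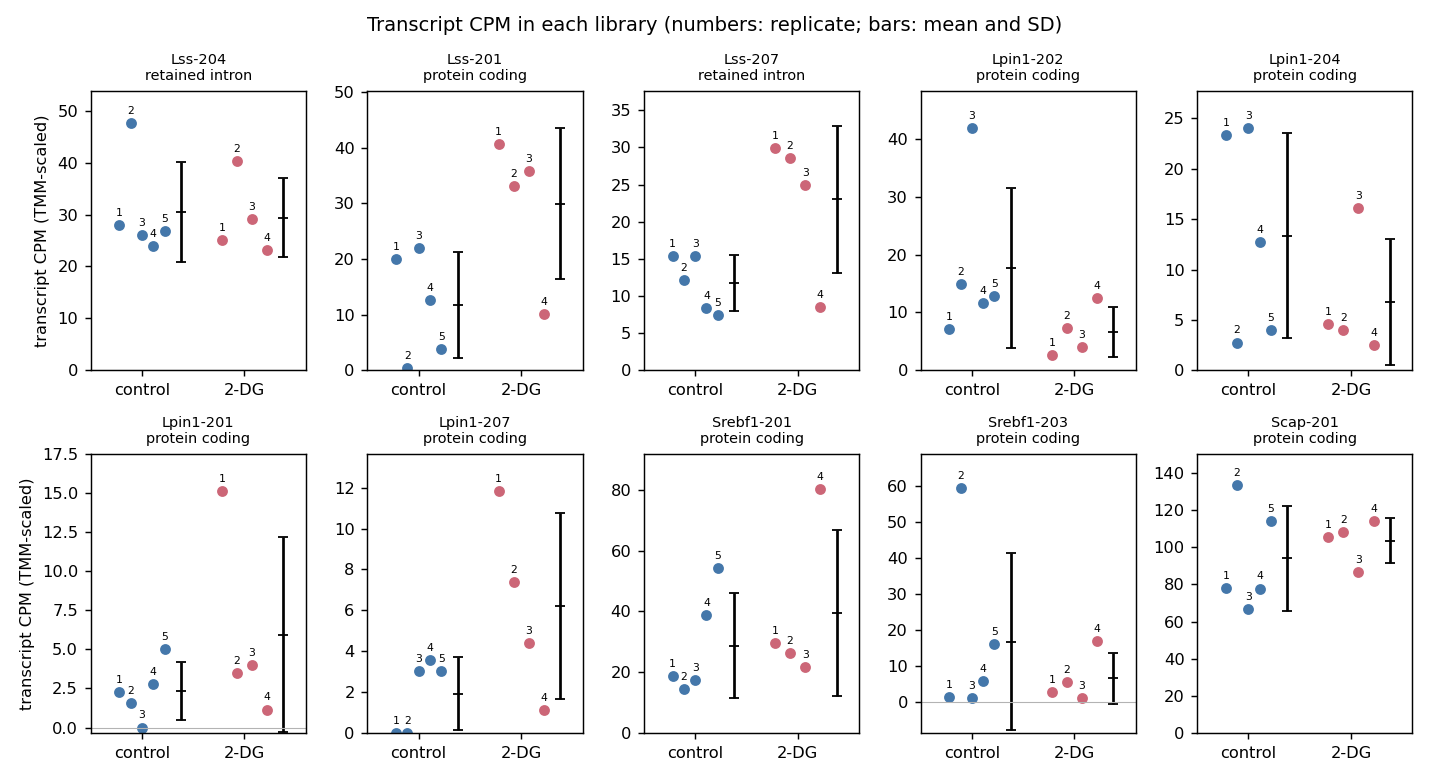
Transcript CPM (y axis) in each control library (blue) and 2-DG library (red), numbered by replicate, with mean and SD in black, for transcripts of Lss, Lpin1, Srebf1 and Scap. Lss-201 and Lss-207 are high in 2-DG replicates 1 to 3, Lss-204 is level, and Srebf1-203 is high in control replicate 2.

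Per kilobase of exon, the levels in control ran over a wide range. Scd2 was highest with 30.8 ± 10.8 CPM per kb (SD, n = 5), followed by Insig1 with 28.9 ± 5.43, Hmgcs1 with 25.5 ± 5.41, Pmvk with 25.4 ± 8.64 and Srebf2 with 21.4 ± 4.75. The enzymes Lss with 4.97 ± 1.30 and Dhcr7 with 4.29 ± 0.827 and the carrier Stard4 with 4.76 ± 0.984 were near the low end. Scd1 was lowest with 0.815 ± 0.67, 37.8 times below Scd2. Of the 32 pairs of neighbours in this order, 31 overlapped in their control values, and the exception was Dhcr7 and Scd1. The length counts all annotated exon bases of a gene, those of retained-intron forms included, so the order depends on the annotation. It is 10787 bases for Lss, 5817 for Dhcr7 and 4208 for Fdps. Their transcripts Lss-201, Dhcr7-202 and Fdps-201 have 4667, 2556 and 1237 bases. An order by transcript length was not tested.

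Exons of 11 of the 33 genes overlap those of another gene, 8 of them on the opposite strand. The kit keeps strand, but whether counting used it is not given in the sources used here, so these values are uncertain to that extent. Fdft1 shares 774 bases with Ctsb on the opposite strand, which was at 859 CPM in control and 831 CPM with 2-DG, a log2 fold change of -0.05. Scap shares 985 bases with 5830462I19Rik and Lss 381 bases with 4930483K19Rik on the opposite strand, and Fdps shares 1124 bases with Gm43738 on the same strand. These neighbours were not among the genes tested. Tm7sf2 shares 532 bases with Vps51 on the same strand, which had a log2 fold change of 0.07.

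The rest of the pathway was followed in 47 further genes. Of these, 25 (53.2%) were higher with 2-DG, against 49.2% of all genes, and the median log2 fold change was 0.03. At an unadjusted p under 0.05, 1 (2.13%) was higher, against 2.42% of all genes, and 0 were lower, against 4.83%. Over the fits with libraries left out, between 0 and 4 of the 47 were higher at this p (4 without control replicate 2 and 2-DG replicate 4, 8.51% against 4.76% of all genes). With upper-quartile or library-size scaling 0 of the 47 were higher at this p, and 21 and 22 were higher by sign, against 42.0% and 44.1% of all genes. The 1 with TMM scaling was Acly, ATP citrate lyase, which makes the acetyl-CoA for both pathways. It measured 248, 179, 238, 139 and 127 CPM in control replicates 1 to 5 and 286, 304, 281 and 233 CPM in 2-DG replicates 1 to 4. All 2-DG libraries lay above the control mean, for a log2 fold change of 0.56 (SE 0.25), an unadjusted p of 0.0470 and an adjusted p of 0.689 in edgeR. By group, 4 of 10 genes of sterol enzymes and uptake were higher (median -0.04), 4 of 7 of SREBP processing and degradation (0.19), 4 of 8 of LXR and cholesterol efflux (0.02), 4 of 5 of acetyl-CoA and NADPH supply (0.17), and 9 of 17 of elongation, acyl activation and glycerolipid synthesis (0.03).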

How the data were processed

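The authors deposited estimated counts per gene and per transcript, not scaled between libraries, for total RNA libraries made with a stranded kit (4 ng of input, 13 amplification cycles, paired reads of 101 bases). The submitters' processing notes name kallisto and GRCm38. How gene values were made from transcripts is not given in the sources used here. A table of CPM by the authors and their comparison table (fold changes and p-values) were not used. 0 columns lacked a sample.

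Estimated counts were rounded, filtered with filterByExpr, scaled by TMM and tested with edgeR 4.0.16 (R 4.3.3) by the quasi-likelihood test on all 9 libraries with group as the only term. Adjusted p-values are Benjamini-Hochberg over all 21049 genes or 62900 transcripts. The SE is the size of the log2 fold change divided by the square root of F. Log2 CPM used a prior count of 2. The script was tested on simulated data. Alternatives used limma 3.58.1, DESeq2 1.42.0 and sva 3.50.0. Totals were 11317734 to 51802249 counts, and floors of 3 counts cover counting error only.

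The gene table names were matched to symbols for 99.4% of IDs. Gene coordinates and exon lengths are from GENCODE M21 (GRCm38). The genes and lists were chosen with earlier results of these data known. Library values are given for Hmgcs1, Sqle, Srebf1, Srebf2, Insig1, Fasn, Scd1, Scd2, Lpin1 and Mylip, and for genes with an unadjusted p under 0.05, a log2 fold change of at least 1 in size or groups that do not overlap. Transcripts are named at an unadjusted p under 0.05 or as the leading pair of 7 genes, and exceptions are marked.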

Additional observations from a re-analysis of the deposited data

Results flagged for a closer look

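In each group of each gene, the lowest and highest library were compared with the rest by Dixon's ratio on log2 CPM, 66 tests in all, and chance alone flags about 1 in 20. On this scale it marked 4 values, all low and in 2-DG libraries. On CPM itself Mylip was not marked, and Tm7sf2 in control replicate 2, high at 60.8 CPM, was. Lss in 2-DG replicate 4 was at 46.6 CPM against 112 to 121 CPM in the other 2-DG libraries. Dhcr7 in the same library was at 13.6 CPM against 27.4 to 29.2 CPM. In 2-DG replicate 3, Srebf2 was at 152 CPM against 164 to 166 CPM, and Mylip at 21.5 CPM against 28.4 to 30.1 CPM.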

How the results depend on the processing

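The gene-level call at an adjusted p of 0.05 depended on the tool: edgeR gave 0 genes, the DESeq2 Wald test 284, limma-voom with quality weights 1222 and edgeR with 2 surrogate variables 725. Leaving out 1 library gave 0 to 16 genes (16 without control replicate 2, 2 without 2-DG replicate 4), and leaving out both, chosen after seeing the data, gave 177. Of the 33 genes, voom put 3, Fdft1, Lss and Scap, past the adjusted threshold (smallest adjusted p 0.0173), against 1222 of all 21049 genes. With edgeR and 2 surrogate variables 2 passed, Fdps and Lss (0.0330), against 725 of all 21049 genes. The number of the 33 higher at an unadjusted p under 0.05 was 2 with upper-quartile scaling (1.53% of all genes), with a CPM filter (2.26%), with a replicate block (3.24%) and with summed transcripts (2.29%), 3 with library-size scaling (1.39%) and without a filter (1.89%), 8 with voom (10.6%), and 1 to 7 over the fits that left out libraries (1.35% to 4.76%). With 2 surrogate variables it was 7 (9.59% of all genes) and 1, Lpin1, was lower (10.2%). The number whose groups did not overlap was 0 with upper-quartile scaling (0.917% of all genes) and 1 to 7 when libraries were left out (1.64% to 6.99%). The median of the genes that control SREBP was 0.17 with the replicate block and -0.0348 to 0.16 when libraries were left out. Transcripts at an unadjusted p under 0.05 numbered 6 higher (1.79% of all transcripts) and 4 lower (3.15%) without a filter, and 0 to 4 higher (up to 2.32%) and 0 to 3 lower (1.30% to 5.23%) when libraries were left out. The cause of these differences was not tested.

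Genes near 0 changed sign. With voom Hmgcs1 was at -0.00932, Pmvk at 0.11, Msmo1 at -0.11, Dhcr7 at 0.21, Insig1 at -0.0707, Fasn at 0.24 and Elovl6 at 0.0229. With 2 surrogate variables Pmvk was at 0.16, Msmo1 at -0.0254, Hsd17b7 at -0.11, Fasn at 0.18 and Scd2 at -0.12. Msmo1 was at -0.0567 and Srebf2 at -0.00906 with upper-quartile scaling, Msmo1 at -0.0472 with library-size scaling and at -0.00930 with the CPM filter, and Dhcr7 at 0.0241 without a filter. With summed transcripts Fasn was at 0.14 and Fads1 at -0.0245. When libraries were left out, the ranges were -0.11 to 0.21 for Dhcr7, -0.42 to 0.31 for Elovl6, -0.11 to 0.18 for Fads1, -0.51 to 0.13 for Fads2, -0.22 to 0.17 for Fasn, -0.0669 to 0.31 for Hsd17b7, -0.0886 to 0.16 for Insig1, -0.21 to 0.00490 for Insig2, -0.17 to 0.0922 for Msmo1, -0.0589 to 0.31 for Mvd, -0.17 to 0.15 for Pmvk, -0.22 to 0.50 for Scd2 and -0.0348 to 0.14 for Srebf2. Of the motif counts, a window from 150 bases before the start left 1, 19 and 4 genes.

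Replicate numbers are shared between the groups. Same-numbered libraries had correlations of their deviations of 0.45, -0.15, 0.10 and 0.21, and 1 of 4 2-DG libraries correlated best with its own number, so the numbers were not taken as pairs. With the replicate block, 2 of the 33 genes, Lss and Stard4, were higher at an unadjusted p under 0.05, 2 transcripts were higher (1.59% of all transcripts) and 0 lower (1.24%), and Pmvk was at 0.0231, Fasn at 0.0857 and Scd2 at -0.13.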
